A study of Mus musculus with 6 samples.

Results

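The genes described here are 40 mouse genes of mitosis and the spindle, the machinery that condenses, aligns and separates chromosomes and then divides the cell. They were chosen by name from what is known of their function, at a time when earlier results of these data were known. All their probes were found through the RefSeq accession that the array files give for each probe. Every one of the 40 genes had a probe, out of 23462 genes that could be named on the array. They were represented by 63 probes, of which 59 met the conditions for testing, and each of the 40 genes had at least 1 tested probe that was well above background on all 6 arrays. For a gene with several tested probes, which was the case for 16 genes, the brightest one stands for the gene.

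Colon RNA of 6 male mice, 3 controls and 3 with a knockout of Islr, was hybridised to single-colour Agilent oligonucleotide arrays, each animal on an array of its own. Islr encodes a secreted protein of the leucine-rich repeat family. The sample source describes the colon of all 6 animals as taken after 5 days of 3.5% dextran sulfate sodium (DSS), an agent that injures the colonic lining, in the water they drank, and 1 day without it. A separate field of the same labels says that no treatment was given, so the course is reported as the source field states it, and no group without DSS was analysed here. The labels give neither the age and strain of the mice nor the cell types in which the knockout acts. All 12 pan-epithelial genes and all 15 genes of differentiated colonocytes on the lists used here were well above background on at least 1 array. The comparison asks how colon expression differs with the loss of Islr at that time.

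Mitosis starts when the kinase Cdk1, bound to cyclin B, becomes active, and it ends when the anaphase-promoting complex marks cyclin B and securin for destruction. Most genes of this machinery are transcribed late in the cell cycle, in G2 and M phase, and are nearly silent in resting cells, so in tissue their transcripts mark dividing cells. In the colon those cells lie mainly in the lower crypt, with further dividing cells in the germinal centres of lymphoid follicles and among proliferating stromal and immune cells. The arrays measured whole tissue, so fewer dividing cells and less of a transcript in each dividing cell cannot be told apart.

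The shared late timing is written in part in the promoters, through a cell cycle element with the core letters TTTGAA, to which the MuvB complexes bind, and through CCAAT boxes, to which NF-Y binds. RefSeq promoter sequence of assembly GRCm38.p6, from 250 bases before to 50 bases after the start of a transcript, was on hand for 32 of the 40 genes, as 34 promoters, and both motifs were searched as letters on both strands. TTTGAA was present for 24 of the 32 genes, in 76.5% of their promoters against 17.9% of 32851 promoters of the same length. CCAAT was likewise present for 24 of the 32 genes, in 76.5% of their promoters against 37.4% of all. Both motifs stood together for 21 of the 32 genes, in 67.6% of their promoters against 6.95% of all. The sequences below run from 120 bases before to 30 bases after the start, 5′ to 3′ on the strand of the gene. They show 1 gene of each functional group whose stretch holds both motifs, and Pttg1, 1 of 5 genes that hold neither motif. Capitals mark TTTGAA or CCAAT read on either strand, so that TTCAAA and ATTGG are the same motifs on the opposite strand. In Cdca8 the motifs overlap by 1 base near the end of the stretch. A match of letters is a description and not a site of binding. Genes that hold neither motif did not all stand apart from the other genes across the arrays, and no comparison by motif was run. Pttg1 did not follow the other genes, but Nuf2, Nusap1, Mad2l1 and Birc5, which also hold neither motif, correlated with the mean of the other genes at 0.98, 0.96, 0.98 and 0.93, and Anln, which holds TTTGAA, at 0.49.
Cdk1 (chr10:69352883-69353032, minus strand): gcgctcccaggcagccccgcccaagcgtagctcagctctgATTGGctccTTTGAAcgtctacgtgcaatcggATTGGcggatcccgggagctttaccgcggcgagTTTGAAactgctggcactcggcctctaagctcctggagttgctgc
Top2a (chr11:99024160-99024309, minus strand): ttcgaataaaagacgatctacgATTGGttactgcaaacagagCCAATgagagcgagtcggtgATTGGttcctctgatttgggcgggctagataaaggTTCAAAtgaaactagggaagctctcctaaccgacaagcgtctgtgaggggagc
Ttk (chr9:83834569-83834718, plus strand): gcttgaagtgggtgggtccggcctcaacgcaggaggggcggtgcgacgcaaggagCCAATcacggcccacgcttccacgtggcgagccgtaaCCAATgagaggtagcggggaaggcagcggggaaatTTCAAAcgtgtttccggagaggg
Cdc20 (chr4:118437314-118437463, minus strand): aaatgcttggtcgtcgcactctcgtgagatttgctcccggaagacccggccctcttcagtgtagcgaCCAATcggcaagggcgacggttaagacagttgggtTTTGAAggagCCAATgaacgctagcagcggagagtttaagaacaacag
Cenpa (chr5:30666766-30666915, plus strand): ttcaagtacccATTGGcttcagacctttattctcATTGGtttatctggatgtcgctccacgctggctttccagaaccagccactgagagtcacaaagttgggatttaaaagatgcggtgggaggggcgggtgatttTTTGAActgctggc
Cdca8 (chr4:124936888-124937037, minus strand): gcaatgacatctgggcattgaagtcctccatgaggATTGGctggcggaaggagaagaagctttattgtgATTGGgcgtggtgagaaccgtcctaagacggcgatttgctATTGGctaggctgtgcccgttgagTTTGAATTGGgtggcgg
Kif11 (chr19:37376262-37376411, plus strand): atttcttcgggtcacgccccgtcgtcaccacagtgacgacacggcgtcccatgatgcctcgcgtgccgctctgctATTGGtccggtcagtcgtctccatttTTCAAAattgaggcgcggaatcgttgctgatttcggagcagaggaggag
Kif23 (chr9:61946770-61946919, minus strand): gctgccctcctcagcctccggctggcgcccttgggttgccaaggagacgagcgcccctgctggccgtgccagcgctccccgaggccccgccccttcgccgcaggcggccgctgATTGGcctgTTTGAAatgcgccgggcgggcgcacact
Pttg1 (chr11:43425952-43426101, minus strand): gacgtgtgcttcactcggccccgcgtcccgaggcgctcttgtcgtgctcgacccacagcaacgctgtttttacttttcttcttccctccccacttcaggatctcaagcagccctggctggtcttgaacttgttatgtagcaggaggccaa

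Each signal was taken as log2 and set relative to the 75th percentile of its array, so 0 is that percentile and a difference of 1 is a 2-fold difference; these values are called log2 signals. Differences are knockout minus control, tested with limma and adjusted by Benjamini-Hochberg over 35351 tested probes at a 5% false discovery rate. The Islr probe checked the labels: control replicates 2 and 3 read 1.24 and 1.21, and the knockouts read -1.40, -0.93 and -1.31, a 5.42-fold lower signal (limma adjusted p = 0.0171). The control replicate 1 spot of this probe was marked as an outlier spot by the scanner software and is missing from that fit. Leaving out knockout replicate 3 as well gave -2.39 and ended the call (limma adjusted p = 0.0580). The 75th percentile itself lay between 4910 and 7110 intensity units. Outlier spots made up 13.6% of control replicate 1 and 16.0% of knockout replicate 1, against 3.26% to 9.05% of the other arrays, and the same 2 arrays occupied column 1 of the slide. All control arrays lay in slide row 1 and all knockout arrays in row 2, so slide row and genotype cannot be told apart. Nothing in the labels ties an animal of 1 group to an animal of the other, and the number of arrays limits the precision.

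At the 5% false discovery rate none of the 40 genes differed between the genotypes, where 3.82% of 16451 tested genes did and 2.47% were lower in the knockout. Their lowest adjusted p was 0.0894, for Cdk1, and 2 genes, Cdk1 and Foxm1, had an unadjusted p under 0.05 in limma, against 14.5% of all genes with a lower signal in the knockout at that level. No probe of the 59 tested was called, where 3.97% of all tested probes were. Even so, 39 of the 40 estimates lay below 0, and only that of Pttg1 was above it; among all tested genes 48.8% lay below 0. The median difference of the 40 genes was -0.54, a 1.45-fold lower signal, beside a median of 0.01 over all tested genes. Single differences ran from -1.29 for Cdk1 to 0.05 for Pttg1. Their standard errors were large, with a median of 0.47 against 0.22 over all genes, and the 95% confidence intervals of 35 of the 40 reached below -1. A 2-fold lower level was therefore inside the interval for most of these genes, as was, for 38 of them, no difference at all.

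**Figure D1:**
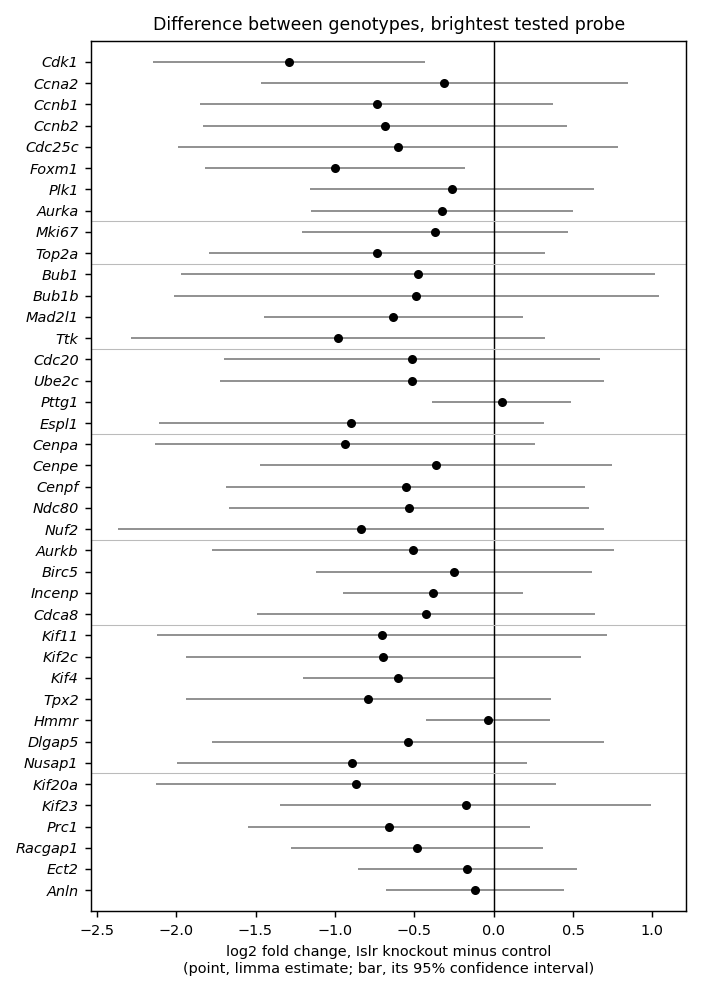
Difference between Islr knockout and control for the 40 mitosis and spindle genes, 1 line per gene in the order of their functional groups. The horizontal axis is the log2 fold change, points are the limma estimates of the brightest tested probe and bars are 95% confidence intervals; 39 points lie left of 0, and only the bars of Cdk1 and Foxm1 stay clear of it.

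The spread inside each genotype set these errors. Over the 36 genes measured on all 6 arrays, the mean of the log2 signals, each centred on its gene's own mean, was -0.59, 0.56 and 0.85 in the controls and -0.74, 0.18 and -0.27 in the knockouts; here and below, values stand in the order of replicates 1, 2 and 3. Control replicate 1 thus sat with the knockouts and below knockout replicates 2 and 3, and the groups overlapped. The 3 controls averaged 0.27 ± 0.76 (SD, n = 3) and the 3 knockouts -0.27 ± 0.46 (SD, n = 3). None of the 36 genes separated the groups, where 37.4% of 13680 genes measured on all arrays did and 19.4% did so with the knockouts lower. Control replicate 1 was below knockout replicate 2 for 35 of the 36 genes and below knockout replicate 3 for 31. Control replicates 2 and 3 were both above every knockout for 34 of the 36, an order found for 30.8% of all genes; Pttg1 and Anln were the exceptions.

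**Figure D2:**
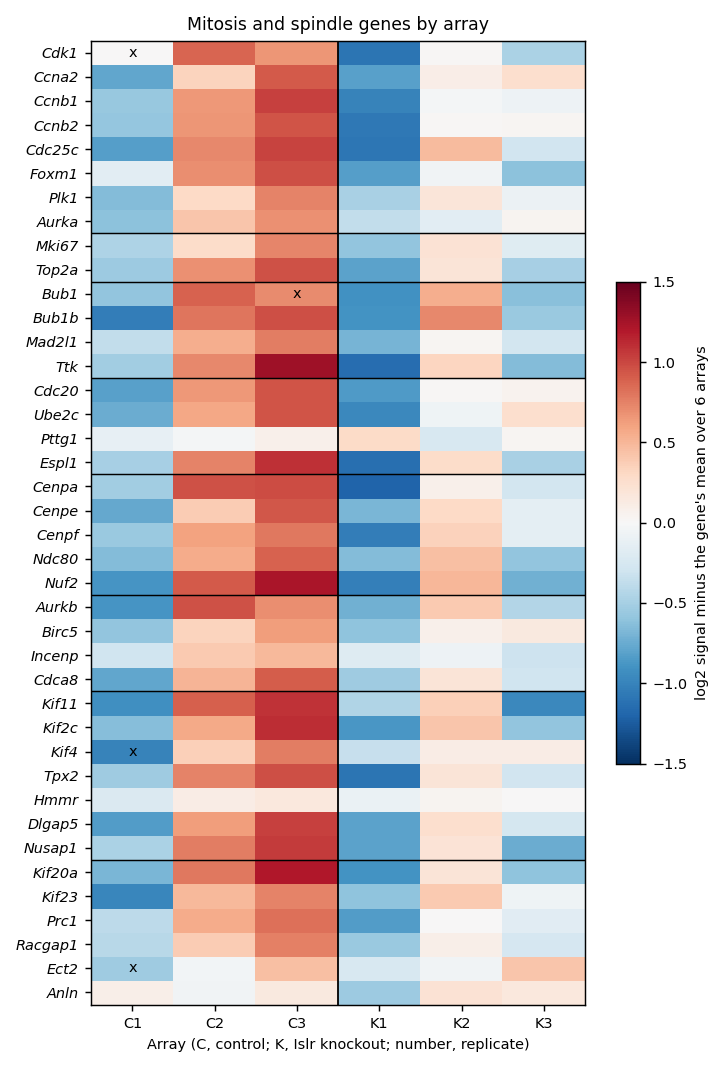
Log2 signal of the 40 genes on each of the 6 arrays, centred on the gene's mean over the arrays; rows are genes in their functional groups, columns are control replicates 1 to 3 and knockout replicates 1 to 3, red is above and blue below the gene's mean. Crosses mark outlier spots, shown here at their measured value and missing from the fit; columns C1 and K1 are blue in nearly every row, C2 and C3 are red, and the rows of Pttg1, Hmmr and Anln are mostly pale.

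The estimate depended on which animals were in it. Leaving out control replicate 1 moved the median difference of the genes to -1.02, and leaving out knockout replicate 2 moved it to -0.83. It was smaller, at -0.30, when knockout replicate 1 was omitted, and at -0.25 when control replicate 3 was omitted. Without control replicate 1, 29 of 39 genes had an unadjusted p under 0.05 and a lower signal in the knockout (16.7% of all genes did), yet none passed the false discovery rate (2.55% of all genes did so in that direction). With arrays weighted by limma, which gave control replicate 1 the weight 0.335 and knockout replicate 1 the weight 0.358, 6 genes were called lower, namely Cdk1, Foxm1, Mad2l1, Cenpa, Incenp and Nusap1. That is 6 of 40 where the same fit called 13.4% of all genes lower, and 18 of 40 had an unadjusted p under 0.05 with a lower signal, where 22.3% of all genes did. With the slide column as a random block, an alternative added after the data were seen, Cdk1 alone was called, where 9.03% of all genes were called lower, and 3 of 40 had such an unadjusted p, where 18.7% of all genes did.

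Slide columns 1 and 3 each held 1 array of either genotype, which gives 2 differences inside a column, each from a single pair of arrays. In column 1, knockout replicate 1 minus control replicate 1 had a median of -0.15 over the 40 genes, with 26 of them lower; over all genes the median was 0.12 and 42.3% were lower. In column 3, knockout replicate 3 minus control replicate 2 had a median of -0.78, with 37 of the 40 lower; over all genes the median was 0.00 and 49.8% were lower. The direction was thus negative in both columns, and the size differed. With both arrays of column 1 left out, the median was -0.77, 21 of 39 genes had an unadjusted p under 0.05 with a lower signal (15% of all genes did), and none was called, where 2.25% of all genes were called lower.

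Genes of entry into mitosis were lower in 8 of 8, with none called and a median difference of -0.64. Cdk1, the kinase that drives the cell into mitosis, read -0.87 and -1.08 in control replicates 2 and 3 and -2.84, -1.73 and -2.22 in the knockouts, while its control replicate 1 spot was an outlier spot with a value of -1.73. Without that spot the difference was -1.29 (SE 0.35, limma adjusted p = 0.0894); with it the groups overlapped, the difference was -1.03 and the adjusted p was 0.116. Ccnb1, cyclin B1, the partner that activates Cdk1, read -2.03, -0.81 and -0.43 in the controls and -2.46, -1.49 and -1.54 in the knockouts. The control replicate 1 value was second lowest of the 6, so the groups overlapped, and the difference was -0.74 (SE 0.47). Foxm1, a transcription factor that activates G2 and M phase genes, read -2.39, -1.54 and -1.27 in the controls against -3.06, -2.29 and -2.86 in the knockouts. The groups overlapped only because control replicate 1 was below knockout replicate 2, and the difference was -0.999 (SE 0.34, limma adjusted p = 0.126).

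Plk1 and Aurka, kinases that mature the centrosomes and help to switch on Cdk1, differed less. Plk1 read -1.83, -0.88 and -0.44 in the controls and -1.66, -1.002 and -1.26 in the knockouts, a difference of -0.26 (SE 0.37). Aurka read -2.93, -1.90 and -1.63 in the controls and -2.68, -2.47 and -2.27 in the knockouts, a difference of -0.32 (SE 0.35). For both genes control replicate 1 was the lowest of all 6 arrays. Ccna2, the cyclin of S phase and early mitosis, Ccnb2, a second cyclin B, and Cdc25c, a phosphatase that removes the inhibitory phosphates from Cdk1, had differences of -0.31, -0.68 and -0.60.

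Mki67, the standard proliferation marker, whose protein coats mitotic chromosomes, read 0.75, 1.49 and 1.95 in the controls and 0.62, 1.43 and 1.03 in the knockouts. Control replicate 3 was highest and knockout replicate 1 lowest, with control replicate 1 next to it, and the difference was -0.37 (SE 0.35, limma adjusted p = 0.540). Top2a, the topoisomerase that untangles sister DNA before they part, read -0.61, 0.61 and 0.89 in the controls and -0.87, 0.13 and -0.57 in the knockouts, a difference of -0.74 (SE 0.44). A second, dimmer Top2a probe gave -1.05, again with control replicates 2 and 3 highest and knockout replicate 1 lowest.

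All 4 genes of the spindle checkpoint, which holds back anaphase until every kinetochore is attached, were lower, none was called, and the median was -0.56. Bub1b, the checkpoint protein BubR1, read -3.63, -1.79 and -1.63 in the controls and -3.49, -1.87 and -3.14 in the knockouts. Knockout replicate 2 lay near the upper controls and control replicate 1 was the lowest array, so that the difference of -0.49 had an SE of 0.64, the largest of the 40. Ttk, the kinase Mps1 that starts the checkpoint, read -3.44, -2.19 and -1.65 in the controls and -4.06, -2.60 and -3.57 in the knockouts, a difference of -0.98 (SE 0.54, limma adjusted p = 0.296). Its values spanned 2.41 over the arrays, the widest range of the 36 genes. Mad2l1, which inhibits Cdc20 when the checkpoint is on, had a difference of -0.63 and Bub1, a kinase of the kinetochore, one of -0.48 with the spot of control replicate 3 missing.

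Of the 4 genes around the anaphase-promoting complex, 3 were lower and Pttg1 was not, with a median of -0.52. Cdc20, the activator of that complex at anaphase, read -0.97, 0.49 and 0.78 in the controls and -1.01, -0.14 and -0.10 in the knockouts, a difference of -0.51 (SE 0.50). Ube2c, its ubiquitin-conjugating enzyme, and Espl1, the separase that opens the cohesin ring, had differences of -0.52 and -0.90. Pttg1, the securin that restrains separase, read 1.15, 1.24 and 1.35 in the controls and 1.56, 1.03 and 1.30 in the knockouts. Knockout replicate 1, the lowest array for 24 of the 36 genes, was here the highest, and the difference was 0.05 (SE 0.18, 95% confidence interval -0.39 to 0.49), a sign that turned under quantile normalization (-0.05).

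The 5 genes of the centromere and kinetochore were all lower, none called, with a median of -0.56. Cenpa, the histone variant that marks centromeres, read -1.87, -0.40 and -0.38 in the controls and -2.55, -1.28 and -1.63 in the knockouts, a difference of -0.94 (SE 0.50, limma adjusted p = 0.279). Ndc80, a subunit of the outer kinetochore complex that grips microtubules, read -2.83, -1.62 and -1.29 in the controls and -2.83, -1.73 and -2.77 in the knockouts, a difference of -0.53 (SE 0.47). For both genes the arrays of control replicates 2 and 3 were highest and control replicate 1 lay among the knockouts. Nuf2, the partner of Ndc80, Cenpf, a large protein of the outer kinetochore, and Cenpe, a kinetochore motor, had differences of -0.84, -0.56 and -0.36.

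The 4 genes of the chromosomal passenger complex, which corrects faulty attachments and then moves to the midzone, were lower by less, with a median of -0.41 and none called. Aurkb, its kinase, read -2.34, -0.50 and -0.75 in the controls and -2.16, -1.06 and -1.89 in the knockouts, a difference of -0.51 (SE 0.53). Aurkb was the 1 gene of the 36 with its highest value in control replicate 2. Birc5, survivin, read 0.70, 1.63 and 1.92 in the controls and 0.69, 1.37 and 1.44 in the knockouts, a difference of -0.25 (SE 0.36). Incenp, the scaffold, and Cdca8, borealin, had differences of -0.38 and -0.43.

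Spindle motors and microtubule-binding proteins, 7 genes, were all lower with a median of -0.69 and none called. Kif11, the motor Eg5 that pushes the spindle poles apart, read -3.77, -1.95 and -1.76 in the controls and -3.29, -2.49 and -3.81 in the knockouts, a difference of -0.70 (SE 0.59). Knockout replicate 3 was lowest and control replicate 1 almost level with it. Tpx2, which activates Aurka on spindle microtubules, read -2.20, -0.93 and -0.70 in the controls and -2.76, -1.49 and -1.96 in the knockouts, a difference of -0.79 (SE 0.48). Nusap1, which bundles spindle microtubules, Kif2c, a motor that shortens microtubules, and Dlgap5, a stabiliser of spindle microtubules, had differences of -0.89, -0.69 and -0.54. Kif4, a chromosome-bound motor, had a difference of -0.60 with the outlier spot of control replicate 1 missing and of -0.08 with that spot kept at -2.73.

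Among the 6 genes of the central spindle and cytokinesis, all estimates were below 0 with a median of -0.33, and none was called. Prc1, which bundles the antiparallel microtubules of the midzone, read -2.11, -1.16 and -0.89 in the controls and -2.55, -1.71 and -1.88 in the knockouts, a difference of -0.66 (SE 0.37). Kif20a, a motor needed for cytokinesis, Racgap1, part of centralspindlin, and Kif23, the motor of centralspindlin, had differences of -0.87, -0.48 and -0.18. Ect2, the exchange factor that activates RhoA at the furrow, had -0.17 with the outlier spot of control replicate 1 missing and 0.08 with it kept. Anln, anillin, a scaffold of the contractile ring, read -3.91, -4.05 and -3.86 in the controls and -4.54, -3.78 and -3.84 in the knockouts. Knockout replicate 1 stood below 5 close values, and the difference of -0.12 (SE 0.23) became 0.09 with normexp background correction.

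Across arrays the genes moved together closely. Over the 630 pairs of the 36 genes measured on all 6 arrays, the median Pearson correlation was 0.93, with quartiles of 0.87 and 0.96, and 63.5% of pairs exceeded 0.9. Among all genes measured on the 6 arrays, the median over pairs was 0.01 and 3.44% exceeded 0.9. The median over pairs was 0.94 as a Spearman correlation. With the 2 arrays farthest from the median of the gene mean left out, control replicate 3 and knockout replicate 1, the median Pearson correlation over the other 4 was 0.89. After the mean of each genotype was subtracted, the median over pairs was 0.94 and 69.7% exceeded 0.9, beside 0.02 and 3.74% for all genes, so the genes also moved together between animals of the same genotype. These correlations describe 6 libraries and share the scaling of each array.

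Each gene was also set against the mean of the others. The correlation exceeded 0.9 for 34 of the 36 genes, with Anln at 0.49 and Pttg1 at -0.26. Of all genes measured on the 6 arrays, 620 (4.53%) exceeded 0.9 with the mean of the mitosis and spindle genes. That count includes mitosis and spindle genes, each of which is part of the mean. A single principal component accounted for 92.8% of the variance of the 36 genes, against 64.7% for all genes. Differences between the genotypes held 22.5% of their sum of squares, against 54.5% for all genes. The highest value was on the array of control replicate 3 for 33 of the 36 genes. The lowest was on that of knockout replicate 1 for 24 and of control replicate 1 for 9, and these 2 arrays were the lowest pair for 29 of the 36 genes but for 12.0% of all genes. They were also the arrays of slide column 1 and those with the most outlier spots. The share of spots well above background was 72.7%, 75.1% and 75.4% in the controls and 69.4%, 74.1% and 73.2% in the knockouts. Its order over the 6 arrays was that of the mean of the 36 genes. The part of slide column, outlier spots or this share in the order was not tested.

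**Figure D3:**
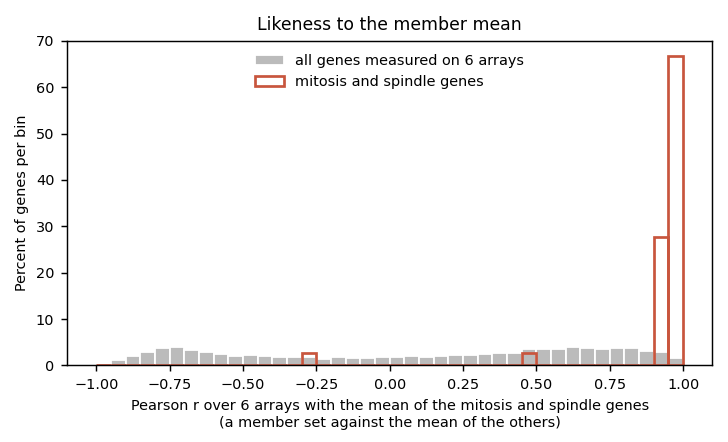
Pearson correlation over 6 arrays with the mean of the mitosis and spindle genes, as the percent of genes in each interval, for all 13680 genes measured on the 6 arrays (grey) and for the 36 mitosis and spindle genes (red outline, each against the mean of the others). The red outline piles up above 0.9, with 34 genes, and Anln (0.49) and Pttg1 (-0.26) stand alone, while the grey bars spread over nearly the whole range.

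The functional groups had nearly the same profile. The mean over the entry genes, with outlier spots missing, was -0.60, 0.54 and 0.90 in the controls and -0.81, 0.08 and -0.11 in the knockouts. That over the centromere and kinetochore genes was -0.68, 0.68 and 0.96 in the controls and -0.92, 0.33 and -0.38 in the knockouts. That over the passenger complex was -0.64, 0.55 and 0.68 in the controls and -0.51, 0.14 and -0.22 in the knockouts. Control replicate 1 was the lowest array in the passenger complex and knockout replicate 1 in the other 7 groups; with outlier spots kept, control replicate 1 was also lowest for the spindle motors (-0.66 against -0.64 in knockout replicate 1).

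Different probes of a gene mostly repeated the pattern. With outlier spots kept, 59 of the 63 probes were lower in the knockout and 50 had a correlation above 0.9 with the mean of the other genes. The 3 probes of Ttk gave differences of -0.98, -0.91 and -0.74. Hmmr, a spindle protein also known as the hyaluronan receptor RHAMM, was split: its brightest probe read 0.20, 0.52 and 0.57 in the controls and 0.31, 0.45 and 0.42 in the knockouts, a difference of -0.04 (SE 0.16). The other 2 Hmmr probes gave -0.90 and -0.76, with control replicates 2 and 3 highest and knockout replicate 1 lowest, whereas the values of the brightest one spanned 0.37 and were lowest in control replicate 1. Kif2c had a probe at -0.69 and a dimmer one at 0.20, which read -3.37, -3.37 and -2.98 in the controls and -3.20, -3.02 and -2.89 in the knockouts. For Anln, a second, brighter probe was not tested because of its outlier spots; with outlier spots kept it read -1.57, -1.73 and -1.27 in the controls and -3.02, -1.92 and -1.57 in the knockouts. Both Pttg1 probes stayed apart from the common pattern, with correlations of -0.02 and -0.26.

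**Figure D4:**
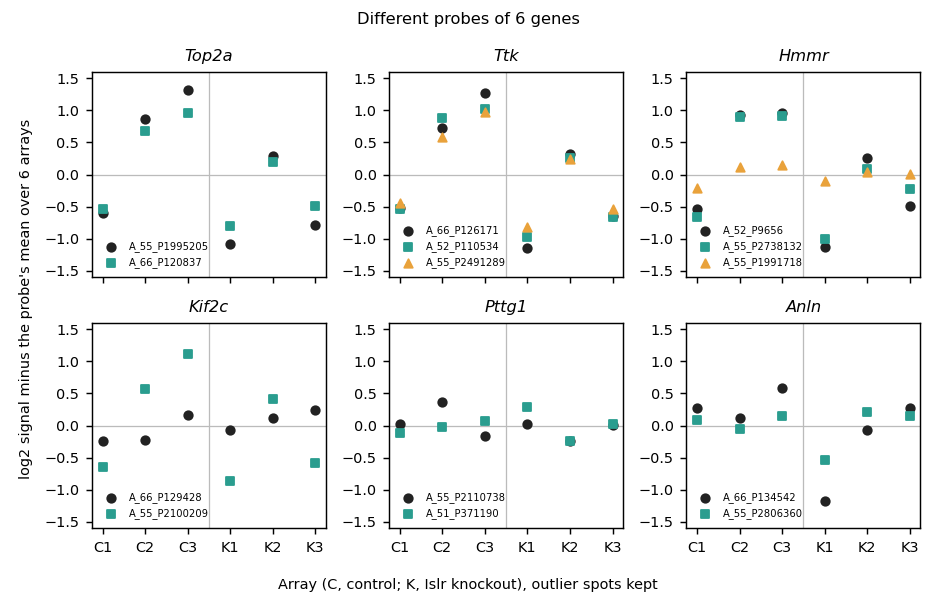
Log2 signal of the different probes of Top2a, Ttk, Hmmr, Kif2c, Pttg1 and Anln on each array, centred on the probe's mean over the 6 arrays with outlier spots kept; each symbol is a probe. The probes of Top2a and of Ttk coincide closely, 1 probe each of Hmmr and Kif2c is nearly flat, and both probes of Pttg1 stay near 0 on every array.

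Other cell cycle genes were followed in 8 lists, 171 genes in all, of which 157 were tested. None was called in limma, where 3.82% of all tested genes were, and 128 of the 157 were below 0. At an unadjusted p under 0.05, 17 of the 157 were lower, where 14.5% of all tested genes were, and 5 were higher. In the list of further spindle and centrosome genes 18 of 20 were lower, with a median of -0.53, and among further centromere and kinetochore genes 20 of 21 were, with a median of -0.40. Condensin and cohesin genes, which shape and hold sister chromatids, were lower in 15 of 17 with a median of -0.44. DNA replication genes, which act in S phase before mitosis, were lower in 32 of 38 with a median of -0.43. Their array means were -0.37, 0.40 and 0.51 in the controls and -0.25, 0.20 and -0.49 in the knockouts, so that knockout replicate 3, and not knockout replicate 1, was lowest. Further regulators of mitotic entry were lower in 11 of 17 with a median of -0.29, and E2F and MuvB genes in 16 of 20 with -0.13. The core subunits of the anaphase-promoting complex, present in resting cells too, were listed with the ubiquitin-conjugating enzyme Ube2s. That list was lower in 11 of 13 with a median of -0.09. The list of CDK inhibitors and D-type cyclins, which act in G1, also held the kinases Cdk4 and Cdk6, and was lower in 5 of 11 genes with a median of 0.10. In that list 4 genes were lower at an unadjusted p under 0.05 in limma, the inhibitors Cdkn2c and Cdkn2d and the kinases Cdk4 and Cdk6. The D-type cyclins Ccnd1 and Ccnd2 were the 2 higher at that level, and none of the list was called.

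Lists of cell type markers were read on the same arrays. Germinal centre B cells, which divide rapidly, had array means of -0.43, 0.78 and 0.90 in the controls and -0.61, 0.34 and -0.98 in the knockouts, with 7 of 8 markers lower, none called (1 at an unadjusted p under 0.05 in limma) and none below background on every array. The correlation with the mean of the mitosis genes was 0.89, beside 0.85 for B and plasma cells, 0.76 for enteric neurons and glia and 0.70 for T cells. Among the other cell type lists it ran from -0.76 for differentiated colonocytes to 0.59 for endothelium. For B and plasma cells the means were -0.58, 0.81 and 0.77 in the controls and -0.31, 0.23 and -0.93 in the knockouts, with 9 of 9 tested markers lower. Of these 1, the plasma cell receptor Tnfrsf17, was called (-1.58, limma adjusted p = 0.0474), where 2.47% of all tested genes were called lower. That call was kept without knockout replicate 1 (0.0428) and lost in limma without any other single array, with adjusted p from 0.0549 to 0.135. It was also lost with quantile normalization, median centring, no filter on dim probes and the mean of all probes of a gene. Control replicate 1 was thus low for both B cell lists as it was for the mitosis genes, while knockout replicate 3 was lower still. Their part in the level of the mitosis genes was not tested. Crypt stem and progenitor genes ran from -0.45 to -0.05 in the controls and from -0.06 to 0.41 in the knockouts, with 6 of 14 lower. Of the 14, 1 was called, Rnf43, a ubiquitin ligase that curbs Wnt signalling (2.11, limma adjusted p = 0.0349). Of all tested genes 3.82% were called in either direction. Rnf43 was no longer called in limma without control replicate 2 or 3 or knockout replicate 1 or 3, with adjusted p from 0.0771 to 0.0914. Its call was also lost with no filter on dim probes.

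Other tissue lists had other profiles. Pan-epithelial genes were above 0 in 10 of 10 tested with none called, and their array means were 0.27, -1.74 and -0.23 in the controls and 0.72, 0.48 and 0.49 in the knockouts. Control replicate 2, with the lowest epithelial mean, was thus among the highest for mitosis genes, and knockout replicate 1, with the highest, was the lowest. All 12 tested genes of differentiated colonocytes and all 6 of goblet cells were above 0, with medians of 1.58 and 0.96 and none called. Neutrophil genes separated the groups, with means of 1.20, 1.22 and 1.09 in the controls and -1.68, -0.92 and -0.90 in the knockouts. Of the 8 tested, 7 were called lower, where 2.47% of all tested genes were. They included the collagenase Mmp8 (-3.85), Retnlg (-4.47, control replicate 1 missing) and the chemokine receptor Cxcr2 (-1.93). Mmp8 was dim in the knockouts, at -5.47, -4.60 and -4.19. Not all of the 8 had a probe well above background in both groups. When testing required that on all 6 arrays, 5 of 6 were called lower, where that fit called 1050 of 31866 probes in either direction. With 1 array left out, the call was lost in 1 of 6 fits for Mmp8, 1 of 4 for Retnlg and 4 of 6 for Cxcr2. Their limma adjusted p then reached 0.0569, 0.0539 and 0.0609. The count of calls rested on single arrays: in limma it was 4 of 8 without knockout replicate 1, 1 of 8 without knockout replicate 3, 1 of 6 without control replicate 3 and 0 of 6 without control replicate 2 (5 at an unadjusted p under 0.05). In the same order, these fits called 263 of 35486, 40 of 31751, 90 of 32743 and 71 of 32437 tested probes in either direction. Fibroblast genes, lower in 9 of 9 with none called, ran from 0.26 to 0.43 in the controls and from -0.82 to -0.10 in the knockouts. Of the other lists, endothelium was lower in 9 of 9 genes with a median of -1.17, macrophages and monocytes in 6 of 9, T cells in 6 of 8, enteric neurons and glia in 7 of 8 and smooth muscle in 0 of 8, with none called. At an unadjusted p under 0.05 in limma, 8 endothelial, 6 fibroblast, 4 macrophage and monocyte and 2 enteric genes were lower, where 14.5% of all tested genes were. At that level 4 colonocyte, 3 pan-epithelial, 2 smooth muscle and 1 macrophage and monocyte genes were higher.

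**Figure D5:**
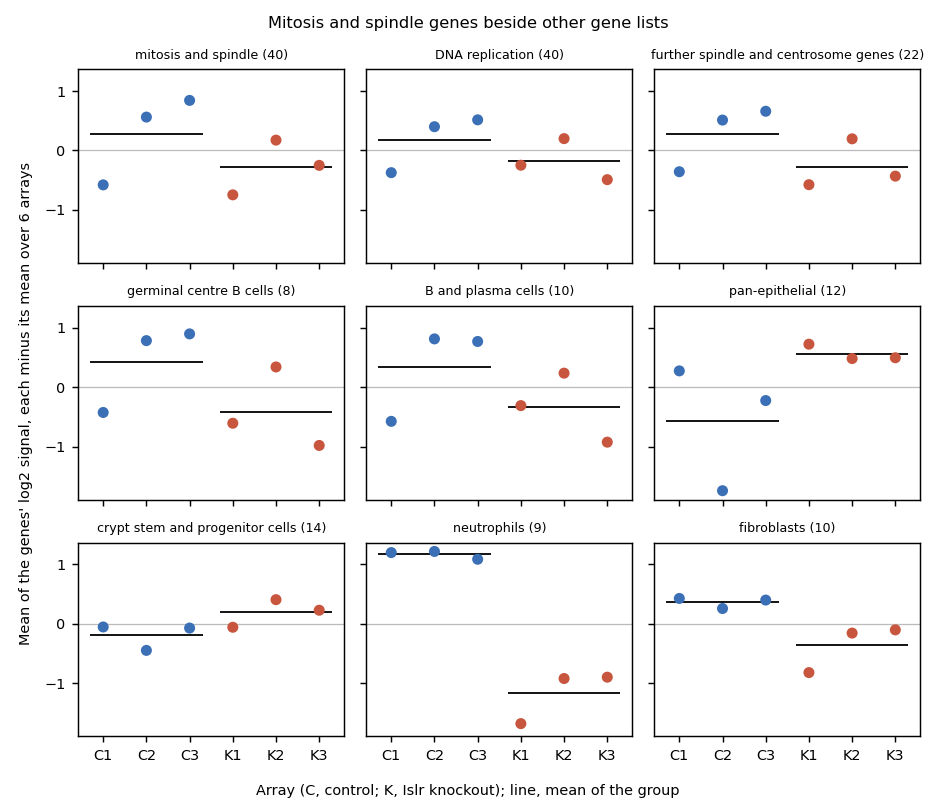
Mean log2 signal of gene lists on each array, each gene centred on its mean over the 6 arrays with outlier spots kept; the number of genes is in brackets, blue points are controls, red points are knockouts and lines are group means. Mitosis and spindle genes and both B cell lists are low in C1, high in C2 and C3 and intermediate in K2, whereas neutrophil genes lie between 1.09 and 1.22 in all controls and between -1.68 and -0.90 in all knockouts.

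The genes outside all these lists whose profile was most like the mean of the mitosis and spindle genes over the 6 arrays included Zbtb48, Shcbp1, Fbl, Pik3cd, Pmch, Rrp12, Crebzf, Lman1l and Olfr374 (Pearson correlations of 0.987 to 0.995). Shcbp1 read -2.44, -1.05 and -0.72 in the controls and -2.71, -1.64 and -2.25 in the knockouts, with knockout replicate 1 lowest and control replicate 1 next. Shcbp1 had a difference of -0.80 (SE 0.49) and Fbl, the nucleolar methyltransferase fibrillarin, one of -0.27 (SE 0.21). None of these 9 genes was called. Pmch, Lman1l and Olfr374 were dim, with -6.18, -4.12 and -5.13 on the array of knockout replicate 1. Among the 50 genes with the highest correlation, down to 0.98, were 10 of the mitosis and spindle genes and 8 of the other cell cycle lists. The mitosis and spindle genes are themselves part of that mean.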

How the data were processed

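Colon RNA of 6 mice was hybridised to 1 single-colour Agilent array each; groups follow the genotype in the labels, and replicate numbers only name the animals. Per the file headers, spots were quantified on design 074809 by Feature Extraction 11.5.1.1, whereas the submitters' processing notes name version 10.7. The deposited processed signal is an intensity on a linear scale, spatially detrended and background-subtracted but not scaled between arrays, per the file headers. The labels name Cy3 and a green signal; the files held a red channel, which was used. The deposited value table, also intensities, was close to that signal averaged over spots (log2 correlation of at least 0.999999, largest log2 difference of a probe 0.30).

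Here log2 of the signal minus the array's 75th percentile was used. Spots marked as outliers were set to missing, and spots of 1 probe were averaged. Testing required a probe to have 2 or more usable values per group and, in 1 group or both, a signal well above background on all 3 arrays, which left 35351 of 56605. They were tested two-sided with limma 3.58.1 in R 4.3.3, with Benjamini-Hochberg adjustment. Probes were named through the RefSeq accession in the GRCm38.p6 annotation (59.7% named); the array files use mm9, so coordinates are given only for RefSeq promoters, in GRCm38.p6. On simulated data for this comparison (35351 probes), limma recovered 58% of changes of 2 and 12% of changes of 1 on the log2 scale, and 4 of 83 calls were false.

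Named were all 40 genes, with values on every array for a set of main genes, the 3 lowest and 3 highest and those whose probes disagreed by more than 0.5 with opposite sign; list genes that were called (at most 3 per list); and the 10 most similar genes, of which 1 is not reported here. The members and the 8 cell cycle and 13 cell type lists were chosen with earlier results of these data known. Alternatives were normexp (offset 50), quantile normalization, median centring, outlier spots kept, other filters on dim probes, array weights, the value table, the mean of all probes, each array left out, and, added after the data were seen, the slide column as a random block, column 1 left out and differences within a column.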

Additional observations from a re-analysis of the deposited data

How the results depend on the processing

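No paired analysis was possible because the labels give the animals no shared replicate numbers; the slide column, used below as a block, is a position on the slide. Under every alternative the median difference of the mitosis and spindle genes stayed below 0 (-0.25 to -1.02 with 1 array left out, -0.15 to -0.78 otherwise). With 1 array left out, from 31 of 37 tested genes (without control replicate 3) to 39 of 40 (without knockout replicate 2 or 3) were lower. The number called was 0 with any 1 array left out, 6 with array weights and 1 with the slide column as a random block; the other alternatives called none. The median correlation over pairs was 0.90 with median centring and 0.89 to 0.96 with 1 array left out. Over all tested probes, 1403 were called (39.1% of them higher in the knockout), against 2545 with normexp (50.6%), 2185 with quantile normalization (35.0%), 2249 with median centring (35.4%), 484 with no filter on dim probes (33.7%), 9292 with array weights (49.4%) and 6012 with the block (47.6%), and 40 to 2114 with 1 array left out. Estimates near 0 changed sign. Pttg1 was -0.048 with quantile normalization, -0.028 with array weights, -0.047 with the mean of its probes, -0.13 with column 1 left out and -0.081 to 0.19 with 1 array left out. Ect2 was 0.080 with outlier spots kept and 0.095 with array weights. Anln was 0.086 with normexp, 0.098 with array weights, 0.14 with column 1 left out and -0.25 to 0.13 with 1 array left out. With 1 array left out, Ccna2 ran from -0.78 to 0.070, Plk1 from -0.65 to 0.040, Cenpe from -0.84 to 0.011, Hmmr from -0.15 to 0.032 and Kif23 from -0.71 to 0.15. The cause of these changes was not tested. With 3 arrays a group, the simulation recovered 0% of changes of 0.5 and 12% of changes of 1, so the lack of calls does not show equal levels. Its noise was drawn for each probe on its own, whereas the genes here moved together, so its rates are not those of these genes.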
